A study of Mus musculus with 15 samples.

Results

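The 10 genes described here are markers of T cells and of cytotoxic lymphocytes, followed across 5 kinds of mouse colon tissue. They are the CD3 chains Cd3d, Cd3e and Cd3g, the coreceptor genes Cd4, Cd8a and Cd8b1, the regulatory genes Foxp3 and Ctla4, and the granzymes Gzma and Gzmb. A probe set was counted for a gene where the array's annotation gave it that symbol and no other, which gave 15 probe sets for the 10 genes, of 45101 on the array. The brightest probe set of a gene, by its mean over the 15 arrays, is reported first, as for all 18193 genes tested, and the other probe sets of Cd4 and Cd8a are given beside it.

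Gene expression was measured on Affymetrix Mouse430_2 arrays, 3 per group, in male littermates of a C57BL/6 and 129 hybrid background at 3 months of age. The groups were tumour tissue of double mutants (APC+/-/Olfm4-/-), adjacent normal tissue of double mutants (APC+/-/Olfm4-/-), colon of Olfm4 mutants (APC+/+/Olfm4-/-), colon of APC mutants (APC+/-/OLFM4(+/+)) and wild-type colon (APC+/+/Olfm4+/+). APC restrains Wnt signalling and its loss starts intestinal tumours, and OLFM4 is a secreted glycoprotein of the intestinal crypt. Per the sample titles, the 3 tumour arrays and the 3 adjacent arrays came from 2 animals, replicate 1 from the first and replicates 2 and 3 from the other, although the series describes 3 mice per category. Which animal gave Olfm4 mutant replicate 3 is uncertain, because its title mixes the numbers of the other 2. The labels name neither the Apc allele nor the way Olfm4 was removed.

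A T cell recognises antigen through its receptor, which signals through the CD3 chains, and CD4 or CD8 binds the MHC molecule that presents the antigen. Cytotoxic T cells and NK cells kill target cells with perforin, which opens the membrane, and with granzymes, the proteases that enter through it. FOXP3 is the master regulator of regulatory T cells, and CTLA4, which these cells and activated T cells carry, competes with CD28 for the costimulatory ligands. The colon mucosa holds T cells in the lamina propria and between epithelial cells, where many carry CD8 and granzymes.

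Values are log2 RMA values, a background-corrected and normalised hybridisation signal on which 1 unit is a doubling. Levels of different probe sets cannot be set against each other, because probes differ in how strongly they bind. A gene is called changed where limma's moderated test over all 15 arrays gave an adjusted p (Benjamini-Hochberg over all 18193 genes) under 0.05. In pieces of tissue, fewer cells of a type and less RNA per cell cannot be told apart.

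Several features of the arrays bear on these genes. Wild-type replicate 1 was the lowest array of its group for 10 of the 10 genes, by a median of 1.12 below the group mean on the log2 scale, and it had the highest mean over the 8 smooth muscle genes, 13.15 against 11.72 and 11.84 in the other wild-type arrays. Tumour replicate 1 was the lowest tumour array for 9 of the 10 genes and the highest for Foxp3. It also had the highest mean over the 10 mast cell genes, 10.35 against 8.15 and 8.28. A measure of 3′ bias, the 3′ minus 5′ difference of the spiked-in control RNAs, averaged 5.01 ± 0.255 in tumour, 4.10 ± 0.30 in adjacent tissue, 2.64 ± 0.525 in Olfm4 mutants, 2.16 ± 0.203 in APC mutants and 1.99 ± 0.083 in wild type (log2, SD, n = 3 each), so it moved with the groups. The arrays were also numbered in blocks by group, so array order and group cannot be told apart. The Olfm4 probe set lay between 2.97 and 3.32 on all 15 arrays, wild type included, and gives no check of the Olfm4 genotype. The 8 epithelial genes had a mean of 12.84 to 13.08 in tumour, 13.48 to 13.60 in adjacent tissue and 13.58 to 13.85 in wild type, among the bright genes of the array.

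Gzmb and Ctla4 were the members that differed most clearly in tumour. Gzmb rose 3.76-fold in tumour against adjacent tissue, and Ctla4 rose 2.74-fold in tumour against wild-type colon. Both calls were lost with the spike-in difference in the fit, and that of Gzmb also with some single arrays left out. Members called higher were 1 of 10 and 2 of 10 in these comparisons, where 14.3% and 29.3% of all genes were. Neither the CD3 chains nor the coreceptors nor Foxp3 passed the test between tumour and adjacent or wild-type tissue. Cd3e rose 2.17-fold in adjacent tissue against wild type, a difference that rests in part on the low wild-type array. In the plot of the 10 genes by array, granzyme B and Ctla4 stand above the other groups in tumour while most panels show overlapping groups.

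**Figure D1:**
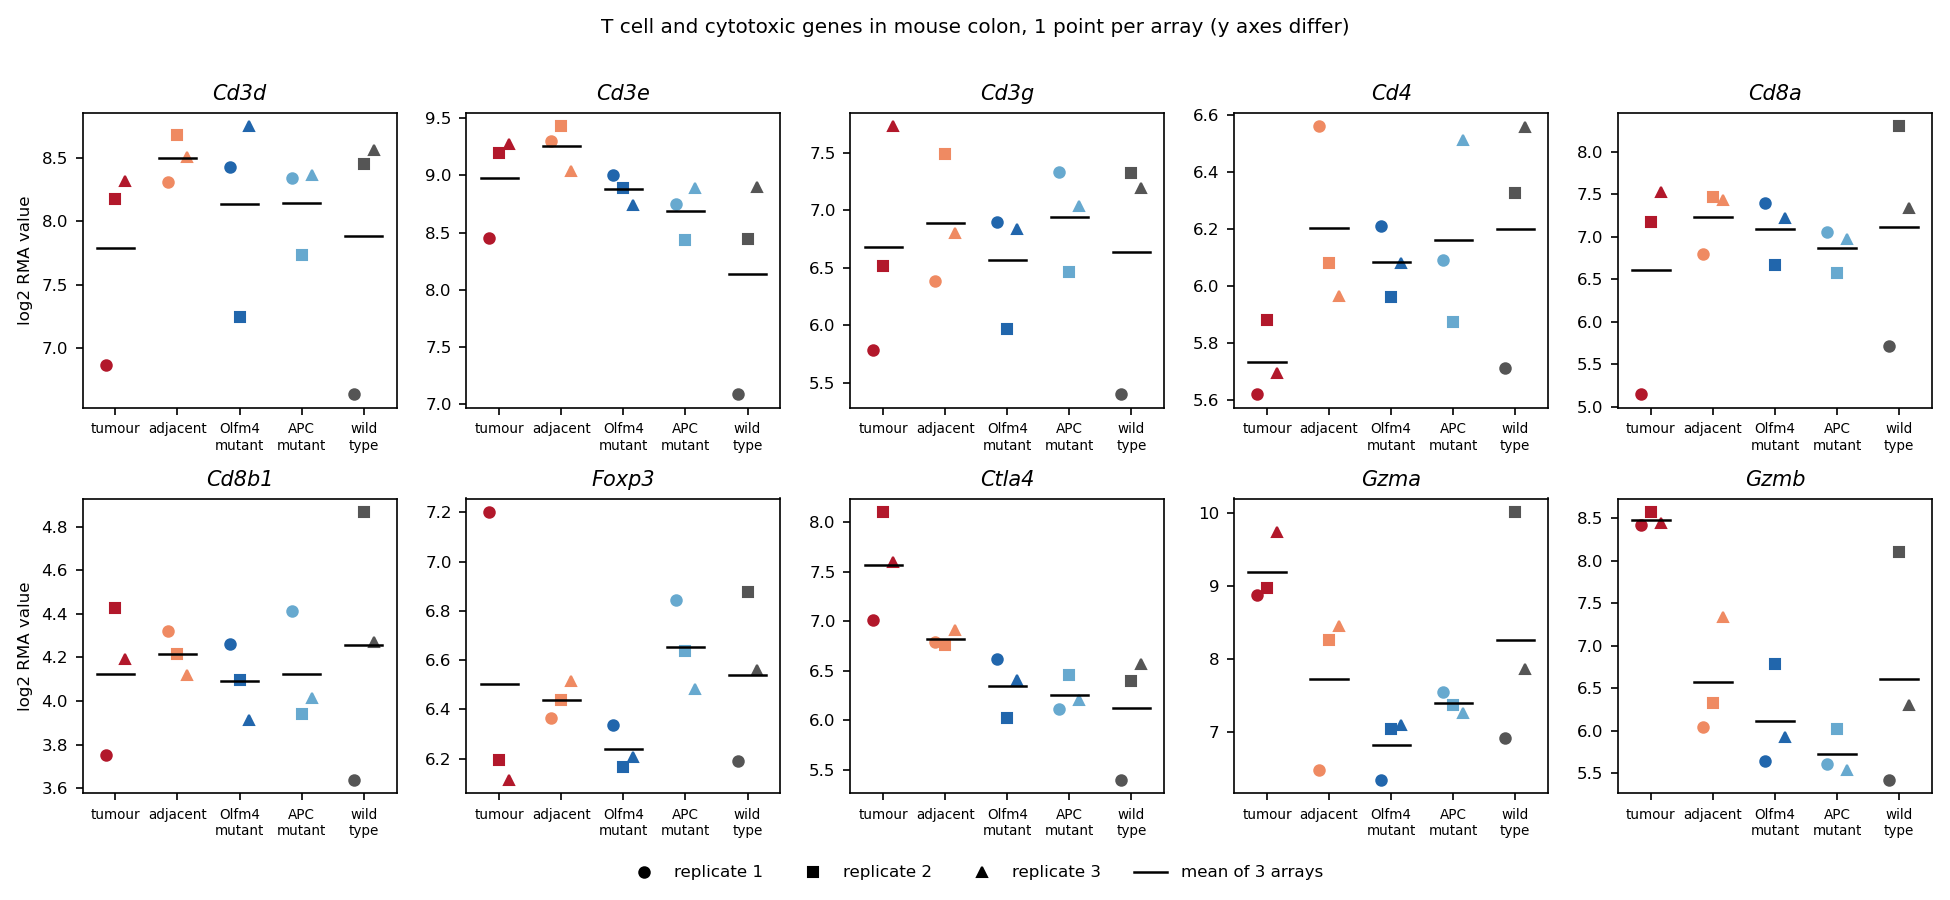
Log2 RMA value (y axis) of each of the 10 genes on each array, by group (x axis), with 1 point per array shaped by replicate number and a bar at the mean of 3 arrays. Gzmb lies between 8.42 and 8.57 on the tumour arrays and between 6.04 and 7.34 on the adjacent arrays, and wild-type replicate 1 is the lowest wild-type point in every panel.

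Granzyme B, a serine protease that triggers apoptosis of the target cell, gave the most uniform tumour values of the 10 genes. Gzmb measured 8.42, 8.57 and 8.44 in tumour, 6.04, 6.33 and 7.34 in adjacent tissue, 5.64, 6.79 and 5.93 in Olfm4 mutants, 5.61, 6.02 and 5.54 in APC mutants and 5.42, 8.10 and 6.30 in wild-type colon. Each tumour array was above each array of the other groups. Wild-type replicate 2, at 8.10, was the highest of the arrays outside tumour. The order of the means was tumour, wild type, adjacent tissue, Olfm4 mutants and APC mutants, and below tumour the arrays of each neighbouring pair of groups overlapped. The tumour mean of 8.48 ± 0.082 exceeded the adjacent mean of 6.57 ± 0.682 (SD, n = 3 each) by 1.91 (limma, SE 0.542, adjusted p = 0.018). Against the wild-type mean of 6.61 ± 1.36 the tumour was higher by 1.87 (limma, SE 0.542, adjusted p = 0.0115).

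Of the 10 members, Gzmb alone was called between tumour and adjacent tissue, 1 of 10, where 28.1% of all genes were called and 14.3% were called higher. The median difference was -0.15 over the 10 members and 0 over all genes, and against wild type it was 0 over the members and 0.11 over all genes. The call was lost without tumour replicate 2 (difference 1.86, adjusted p = 0.0529), without adjacent replicate 1 (1.65, adjusted p = 0.0712) and without adjacent replicate 2 (1.79, adjusted p = 0.0637, limma throughout). It was also lost when the arrays of an animal were averaged (2.03, adjusted p = 0.0659) and when the spike-in difference entered the limma fit (0.78, adjusted p = 0.583). Between tumour and wild type the call was lost without wild-type replicate 1 (1.28, limma, adjusted p = 0.0506), and with the spike-in difference in the fit the sign turned (-1.87, limma, adjusted p = 0.933).

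The promoter window of Gzmb is shown with that of Ctla4 and that of Cd3e, since these are the members called in a comparison. Each window runs from 250 bases before to 50 bases after the start site in RefSeq, and 8 of the 10 members have a window. Capitals mark matches, on either strand, to TGANTCA (AP-1), TGTGGT (the Runx core), TGACGT (the core of a CREB site) and TATAAA (the TATA box).

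Gzmb, GRCm38.p6, chr14:56262285-56262584, minus strand: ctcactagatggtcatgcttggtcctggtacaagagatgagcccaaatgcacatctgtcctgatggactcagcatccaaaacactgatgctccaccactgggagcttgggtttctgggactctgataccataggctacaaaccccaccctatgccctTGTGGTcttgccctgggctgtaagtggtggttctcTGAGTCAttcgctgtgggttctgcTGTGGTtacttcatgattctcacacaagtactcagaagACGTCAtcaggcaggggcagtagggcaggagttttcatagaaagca

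Ctla4, GRCm38.p6, chr1:60908775-60909074, plus strand: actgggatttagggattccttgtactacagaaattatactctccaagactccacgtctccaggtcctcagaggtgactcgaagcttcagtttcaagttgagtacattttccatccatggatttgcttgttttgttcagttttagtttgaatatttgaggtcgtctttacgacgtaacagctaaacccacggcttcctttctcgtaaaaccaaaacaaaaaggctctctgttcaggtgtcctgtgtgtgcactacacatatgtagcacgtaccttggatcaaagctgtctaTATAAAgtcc

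Cd3e, GRCm38.p6, chr9:45009562-45009861, minus strand: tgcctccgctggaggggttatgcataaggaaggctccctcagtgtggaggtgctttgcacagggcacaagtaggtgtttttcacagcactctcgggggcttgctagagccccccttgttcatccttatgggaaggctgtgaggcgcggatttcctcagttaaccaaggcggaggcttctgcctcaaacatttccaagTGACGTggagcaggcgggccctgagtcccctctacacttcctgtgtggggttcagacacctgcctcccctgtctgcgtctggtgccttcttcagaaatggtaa

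The Gzmb window holds an AP-1 match that begins at position -58, Runx core matches at -93 and -34, and the core of a CREB site on the opposite strand at 5, counted from the start site, with no overlap between them. Of 32851 promoter windows of this length, 7.81% hold the AP-1 motif, 16.8% the Runx core and 7.51% the CREB core. The Cd3e window holds a CREB core at -53. The Ctla4 window holds the TATA motif at position 41, after the annotated start, and 13.6% of windows hold it. The windows of Cd3d, Cd3g and Cd8a hold none of these letters, and that of Gzma holds a Runx core on the opposite strand at -50. A Foxp3 window, of the pair listed, holds the TATA motif at -32. These matches describe the sequence and not the binding of any factor.

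Granzyme A, a tryptase-like granzyme of the same granules, also had its highest mean in tumour, with a wider spread. Gzma measured 8.88, 8.97 and 9.74 in tumour, 6.47, 8.26 and 8.45 in adjacent tissue, 6.34, 7.04 and 7.09 in Olfm4 mutants, 7.55, 7.37 and 7.26 in APC mutants and 6.92, 10.01 and 7.86 in wild type. Tumour arrays lay above the adjacent, Olfm4 mutant and APC mutant arrays, but wild-type replicate 2 was above all of them. The difference of tumour from adjacent tissue was 1.47 (limma, SE 0.66, adjusted p = 0.121) and did not pass. With the replicate number, which pairs tissues of an animal, as a block it passed at the same size (limma, adjusted p = 0.0333), as it did with the animal as a fixed block (adjusted p = 0.0257) and as a random block (adjusted p = 0.0441). It did not pass with the arrays of an animal averaged (1.70, limma, adjusted p = 0.202), and with 1 array left out in turn it ran from 0.84 to 1.83 (limma, adjusted p from 0.0944 to 0.408). Against wild type the tumour difference was 0.93 (limma, adjusted p = 0.268) with all arrays and 1.81 (adjusted p = 0.0128) without wild-type replicate 2, the high array, but 0.26 (adjusted p = 0.767) without wild-type replicate 1, the low one.

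Markers of other cell types with granules were measured beside the granzymes. Of the 10 mast cell genes, 3 were called higher and 1 lower in tumour than in adjacent tissue, where 14.3% of all genes were called higher and 13.8% lower, and the mean over the list ran from 8.15 to 10.35 in tumour against 6.55 to 7.93 in adjacent tissue and 6.07 to 6.83 in wild type. Ms4a2, the beta chain of the mast cell IgE receptor, rose by 5.54 in tumour against adjacent tissue (limma, SE 0.627, adjusted p = 3.23e-05). Within tumour the mast cell mean was highest on replicate 1, the array that was lowest for 9 of the 10 members. Gzmb differed little between the tumour arrays, at 8.42 on replicate 1 and 8.57 and 8.44 on the others. The neutrophil list had 6 of 7 genes called higher, against the same 14.3%. Ncr1, the NK cell receptor NKp46, lay between 3.81 and 4.37 in tumour, 3.88 and 4.16 in adjacent tissue and 4.16 and 4.41 in wild type, in the lowest part of the array's range of 2.56 to 14.96. The part of these cells in the granzyme values was not tested.

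The probe sets of the perforin gene Prf1 disagreed. The kept Prf1 probe set fell by 1.54 in tumour against wild type (limma, SE 0.183, adjusted p = 1.94e-05), with means of 6.32 in tumour, 6.59 in adjacent tissue, 7.17 in Olfm4 mutants, 7.61 in APC mutants and 7.86 in wild type. The other Prf1 probe set averaged 6.23 in tumour, 6.25 in adjacent tissue and 5.90 in wild type and was called in neither comparison with wild type. The direction for perforin therefore depends on the probe set. The group means of the kept probe set rose in the order in which those of the spike-in difference fell, so group and that measure cannot be told apart here.

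Ctla4, the inhibitory receptor, showed the most regular order of groups. It measured 7.01, 8.10 and 7.60 in tumour, 6.79, 6.76 and 6.91 in adjacent tissue, 6.62, 6.02 and 6.40 in Olfm4 mutants, 6.11, 6.46 and 6.21 in APC mutants and 5.40, 6.39 and 6.57 in wild type. Tumour arrays lay above all arrays of every other group, and adjacent arrays above all Olfm4 mutant, APC mutant and wild-type arrays. Of all genes, 23.6% had each tumour array above each adjacent array, 33.3% had each tumour array above each wild-type array and 26.2% had each adjacent array above each wild-type array. The order of the means was tumour, adjacent tissue, Olfm4 mutants, APC mutants and wild type, and no pair tested among neighbours in it passed. The group means of the spike-in difference fell in the same order, so group and this measure cannot be told apart here. Tumour averaged 7.57 ± 0.545 and wild type 6.12 ± 0.632 (SD, n = 3 each), a difference of 1.45 (limma, SE 0.304, adjusted p = 0.00147).

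Together with Gzmb this made 2 of 10 members called higher between tumour and wild type, where 49.4% of all genes were called and 29.3% were called higher. Ctla4 kept its call with each array of these groups left out in turn (differences from 1.09 to 1.73, limma, adjusted p from 0.000625 to 0.00825), and lost it with the spike-in difference in the fit (1.64, adjusted p = 0.876). Tumour differed from adjacent tissue by 0.75 (limma, SE 0.304, adjusted p = 0.0854) and adjacent tissue from wild type by 0.70 (adjusted p = 0.106), and neither passed. With the animal as a random block the tumour minus adjacent difference passed at the same size (limma, adjusted p = 0.0326), and with the arrays of an animal averaged it did not (0.62, adjusted p = 0.313). Without tumour replicate 1 it was 1.03 and passed (limma, adjusted p = 0.0263), and without tumour replicate 2 it was 0.48 (adjusted p = 0.305).

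Foxp3 did not follow Ctla4. It measured 7.20, 6.19 and 6.11 in tumour, 6.36, 6.44 and 6.51 in adjacent tissue, 6.34, 6.17 and 6.21 in Olfm4 mutants, 6.84, 6.63 and 6.48 in APC mutants and 6.19, 6.88 and 6.56 in wild type. The highest and the lowest value of all 15 arrays were both in tumour. The tumour difference from adjacent tissue was 0.06, with a 95% interval from -0.47 to 0.60 (limma, adjusted p = 0.89), and without tumour replicate 1, the high array, it was -0.29.

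The CD3 chains, which carry the receptor's signal in all T cells, did not pass between tumour and adjacent or wild-type tissue. Cd3e measured 8.46, 9.20 and 9.28 in tumour, 9.31, 9.43 and 9.04 in adjacent tissue, 9.001, 8.89 and 8.74 in Olfm4 mutants, 8.75, 8.43 and 8.89 in APC mutants and 7.08, 8.44 and 8.90 in wild type. Cd3d measured 6.87, 8.18 and 8.32 in tumour, 8.31, 8.68 and 8.50 in adjacent tissue, 8.43, 7.24 and 8.75 in Olfm4 mutants, 8.35, 7.73 and 8.36 in APC mutants and 6.64, 8.45 and 8.56 in wild type. Cd3g measured 5.79, 6.51 and 7.73 in tumour, 6.39, 7.49 and 6.80 in adjacent tissue, 6.90, 5.97 and 6.83 in Olfm4 mutants, 7.33, 6.46 and 7.03 in APC mutants and 5.40, 7.32 and 7.20 in wild type. Groups overlapped for Cd3d and Cd3g, and replicate 1 was the lowest array in both tumour and wild type.

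Adjacent tissue was the group with the highest Cd3e mean. Its mean of 9.26 ± 0.20 was above the wild-type mean of 8.14 ± 0.945 (SD, n = 3 each) by 1.12 (limma, SE 0.364, adjusted p = 0.0366). This was 1 of 10 members called between adjacent tissue and wild type, where 27.8% of all genes were called. Without wild-type replicate 1 the Cd3e difference was 0.59 (limma, adjusted p = 0.0922), and it also lost its call without any 1 of the adjacent arrays (differences from 1.03 to 1.23, adjusted p from 0.0595 to 0.103). Cd3d and Cd3g differed by 0.61 and 0.25 in the same comparison (limma, adjusted p = 0.42 and 0.773), and the arrays overlapped.

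Tumour minus adjacent differences were -0.28 for Cd3e (95% interval -1.07 to 0.51), -0.71 for Cd3d (-1.85 to 0.43) and -0.22 for Cd3g (-1.42 to 0.99). These intervals include 0 and a difference of -1 for each chain. Against wild type the tumour difference of Cd3e was 0.84 (limma, adjusted p = 0.0727), and it passed without tumour replicate 1 (1.10, adjusted p = 0.0352) or without wild-type replicate 3 (1.22, adjusted p = 0.0119). Without wild-type replicate 1, the low array, it was 0.31 (limma, adjusted p = 0.328). Averaged over the 3 chains, the level was 7.81 ± 0.714 in tumour, 8.22 ± 0.281 in adjacent tissue, 7.86 ± 0.429 in Olfm4 mutants, 7.93 ± 0.333 in APC mutants and 7.55 ± 1.03 in wild type (SD, n = 3 each). In tumour the mean over the 8 smooth muscle genes ran from 7.80 to 9.48, against 11.57 to 12.12 in adjacent tissue and 11.72 to 13.15 in wild type. All 8 were called lower in tumour against adjacent tissue and against wild type, where 13.8% and 20.1% of all genes were. The part of the smooth muscle difference in the T cell values was not tested.

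**Figure D2:**
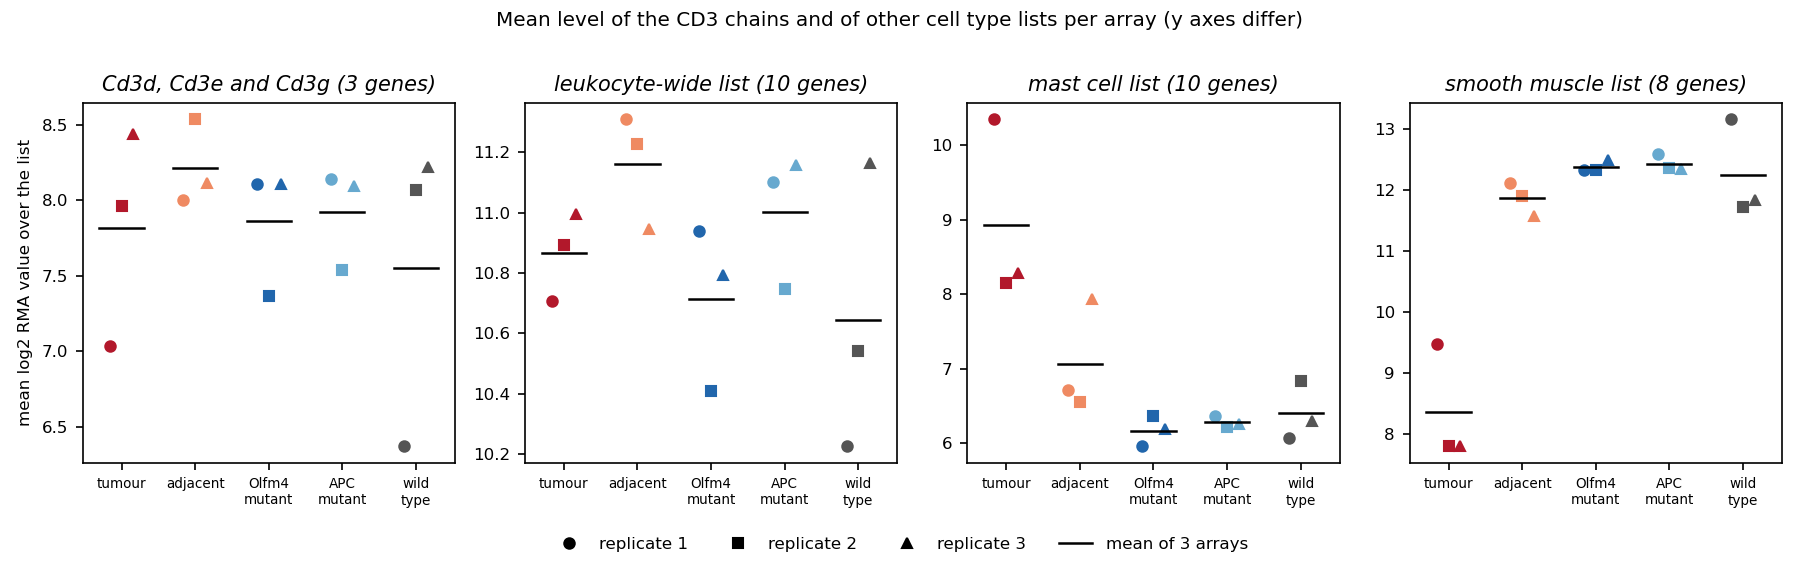
Mean log2 RMA value (y axis) over Cd3d, Cd3e and Cd3g and over the leukocyte-wide, mast cell and smooth muscle lists on each array, by group (x axis), with a bar at the mean of 3 arrays. Wild-type replicate 1 is the lowest for the CD3 chains at 6.37 and the highest for smooth muscle at 13.15, and tumour replicate 1 is the highest for the mast cell list at 10.35.

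The coreceptors gave no call in any comparison. Cd4, the coreceptor of helper and regulatory T cells, measured 5.62, 5.88 and 5.69 in tumour, 6.56, 6.08 and 5.96 in adjacent tissue, 6.21, 5.96 and 6.08 in Olfm4 mutants, 6.09, 5.87 and 6.51 in APC mutants and 5.71, 6.33 and 6.56 in wild type. The tumour and adjacent arrays did not overlap, with tumour below, but the difference of -0.47 did not pass (limma, SE 0.225, adjusted p = 0.145), and 22.3% of all genes had tumour arrays below all adjacent arrays. Without wild-type replicate 1 Cd4 fell by 0.71 in tumour against wild type (limma, adjusted p = 0.0133), against -0.47 with all arrays (adjusted p = 0.103), and with cyclic loess normalisation it fell by 0.61 (limma, adjusted p = 0.0368). Without wild-type replicate 3 the difference was -0.29 (limma, adjusted p = 0.344).

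Cd8a, the alpha chain of the cytotoxic coreceptor, measured 5.15, 7.17 and 7.53 in tumour, 6.80, 7.47 and 7.43 in adjacent tissue, 7.40, 6.67 and 7.22 in Olfm4 mutants, 7.05, 6.58 and 6.97 in APC mutants and 5.72, 8.30 and 7.34 in wild type. Its spread within tumour, 1.28 (SD), was as wide as that in wild type, 1.30, and replicate 1 was low in both. The tumour minus adjacent difference was -0.62, with a 95% interval from -1.97 to 0.74 (limma, adjusted p = 0.523), and without tumour replicate 1 it was 0.12. Cd8b1, the beta chain, lay between 3.64 and 4.87 on all 15 arrays, and its mean was higher than that of only 7.8% of the genes, so a change in it may not be measurable here. Its tumour minus adjacent difference was -0.09 (limma, adjusted p = 0.84). The other probe set of Cd4 was dimmer, with a mean of 4.46 over the 15 arrays, as were the 4 others of Cd8a, at 4.31 to 5.01. None was called in any of the 8 comparisons. The Cd8a probe sets differed in direction in adjacent tissue minus wild type, at 0.113 on the kept one and 0.184, -0.835, -0.405 and -0.025 on the others. Wild-type replicate 2 was the highest wild-type array on each of the 5.

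**Figure D3:**
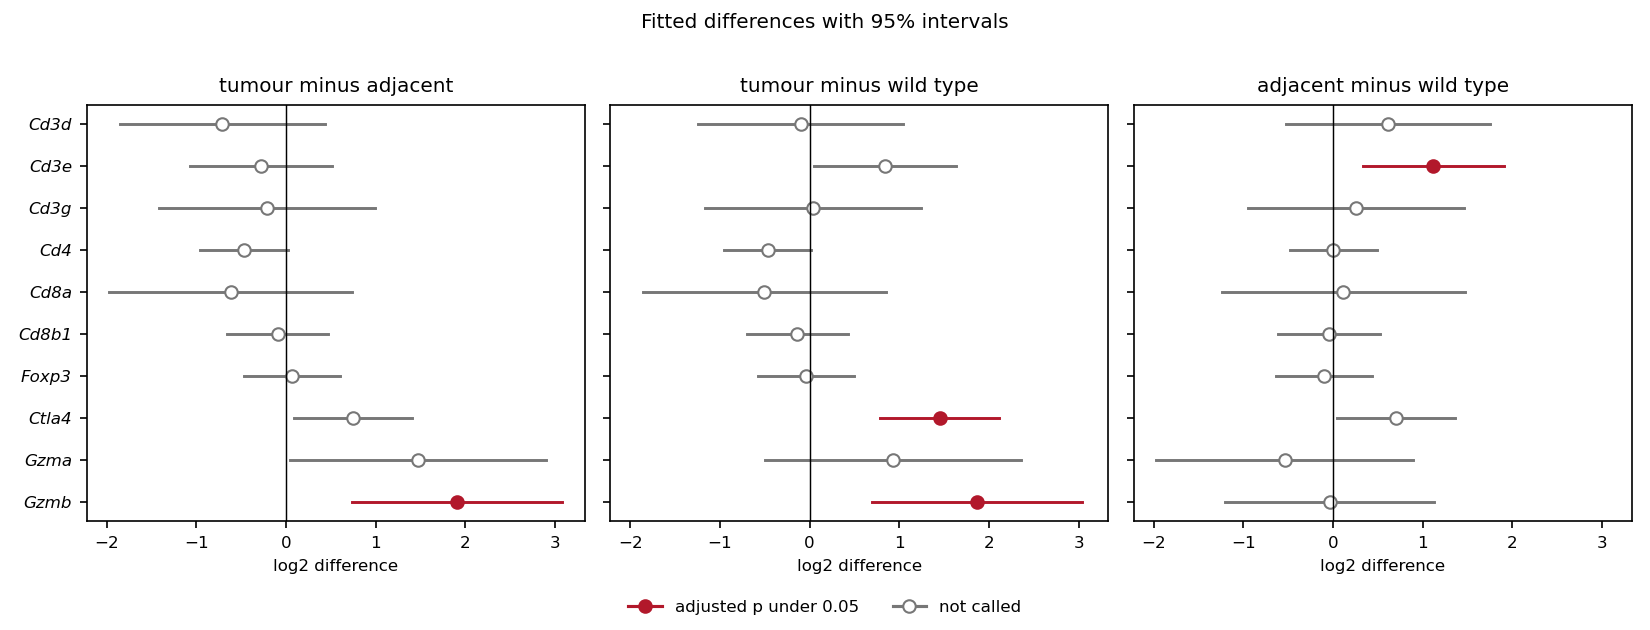
Fitted log2 difference (x axis) with its 95% interval for each of the 10 genes (y axis) in tumour minus adjacent tissue, tumour minus wild type and adjacent tissue minus wild type, filled where the adjusted p was under 0.05. Gzmb is called in both tumour comparisons, Ctla4 against wild type and Cd3e in adjacent tissue against wild type.

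The comparisons without tumour, other than adjacent tissue against wild type, gave no call among the 10 genes. Between Olfm4 mutants and wild type 0 of 10 were called, where 7.92% of all genes were, and between adjacent tissue and APC mutants 0 of 10, where 17.3% were. Between adjacent tissue and Olfm4 mutants 0 of 10 were called and 0.044% of all genes. APC mutants against wild type, and the interaction, gave 0 of 10 and 0% of all genes in limma. The interaction was the adjacent minus APC mutant difference, less the Olfm4 mutant minus wild-type difference. Its double mutant tissue lay beside a tumour and came from 2 animals. An Olfm4 effect in APC+/- animals and nearness to a tumour therefore cannot be told apart. Gzma had the largest of these differences between single mutants and wild type, -1.44 in Olfm4 mutants (limma, SE 0.66, adjusted p = 0.201), and without wild-type replicate 1 it fell by 2.11 (adjusted p = 0.0471). Without wild-type replicate 2 the difference was -0.56 (limma, adjusted p = 0.623). The interaction estimate for Gzma was 1.77, with a 95% interval from -0.25 to 3.79, and that for Gzmb 1.33, from -0.33 to 2.99. Both intervals include 0 and differences of over 2 on the log2 scale.

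Between Olfm4 mutants and wild type 7.92% of all genes were called. The helper list had 1 of 15 called, homing and residency 1 of 16, the chemokine list 1 of 13 and the cytotoxic list 1 of 20. The receptor signalling, regulatory and MHC class I lists had none. Rora, a factor of helper and innate lymphoid cells, rose by 1.05 (limma, adjusted p = 0.0422). Klf2, a gene of resting T cells and endothelium, rose by 1.08 (adjusted p = 0.027). Ccl28, a chemokine made by colon epithelium, rose by 0.90 (adjusted p = 0.011). The kept Prf1 probe set fell by 0.68 (adjusted p = 0.0404). The most variable Rora probe set gave -0.18. With 1 array left out, 5 of 6 refits lost the call for Rora, 4 of 6 for Klf2 and 5 of 6 for Prf1 (limma, adjusted p up to 0.145, 0.0795 and 0.164), and the Ccl28 call was kept in all 6. Rora kept its call only without wild-type replicate 1, Klf2 only without wild-type replicate 1 or 2, and Prf1 only without wild-type replicate 3. Between adjacent tissue and APC mutants 6 of the 16 homing and residency genes and 4 of the 18 genes of receptor signalling and costimulation were called higher, with none lower, where 9.88% of all genes were called higher and 7.45% lower. The regulatory list had 3 of 16 higher, the helper list 3 higher and 1 lower of 15, the cytotoxic list 1 higher and 1 lower of 20, the chemokine list 1 higher and 1 lower of 13, and the MHC class I list 0 of 14. Icos averaged 8.84 in adjacent tissue and 7.36 in APC mutants, a difference of 1.48 (limma, SE 0.298, adjusted p = 0.00677). It is in both the receptor signalling and the regulatory list and is counted in each.

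Other genes of T cell receptor signalling and costimulation split in tumour. Of 18 measured, 2 were called higher and 2 lower in tumour than in adjacent tissue, against 14.3% and 13.8% of all genes. Prkcq, protein kinase C theta, rose by 2.07 (limma, SE 0.287, adjusted p = 0.000154) and Lcp2, the adaptor SLP-76, by 0.82 (adjusted p = 0.000389). Cd28, the costimulatory receptor that shares its ligands with CTLA4, fell by 1.87 (limma, SE 0.185, adjusted p = 1.19e-05) and the adhesion molecule Cd2 by 1.69 (adjusted p = 0.000778). Cd28 measured 4.91 to 5.31 in tumour and 6.79 to 7.17 in adjacent tissue, and the other Cd28 probe set was called lower too (limma, adjusted p = 0.0475 over all probe sets). The zeta chain gene Cd247 averaged 5.76 in tumour and 5.84 in adjacent tissue.

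The costimulatory receptors Icos and Tnfrsf9 were high in tumour on the probe set kept for each. Icos measured 9.22 to 9.71 in tumour, 8.73 to 8.93 in adjacent tissue and 6.34 to 7.81 in wild type. It rose by 2.20 in tumour against wild type (limma, SE 0.298, adjusted p = 5.48e-05) and by 1.61 in adjacent tissue against wild type (adjusted p = 0.00224). Tnfrsf9, which encodes 4-1BB, measured 10.31 to 10.49 in tumour, 7.50 to 8.80 in adjacent tissue and 5.77 to 7.39 in wild type, and rose by 2.39 in tumour against adjacent tissue (limma, SE 0.364, adjusted p = 0.000331). The other probe sets of Icos gave no call in these comparisons, with means between 5.10 and 5.79 in all groups, and those of Tnfrsf9 were not called between tumour and adjacent tissue. The kept Icos probe set was not called between tumour and adjacent tissue, with means of 9.43 and 8.84. The group means of Icos and Prkcq on their kept probe sets, like those of Ctla4, fell in the order of the spike-in difference. Group and that measure cannot be told apart for them. Gpr83, a receptor that regulatory T cells of the mouse carry, fell by 2.41 in tumour against adjacent tissue (limma, SE 0.572, adjusted p = 0.00668), so the 16 genes of the regulatory and checkpoint list gave 1 higher and 1 lower.

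**Figure D4:**
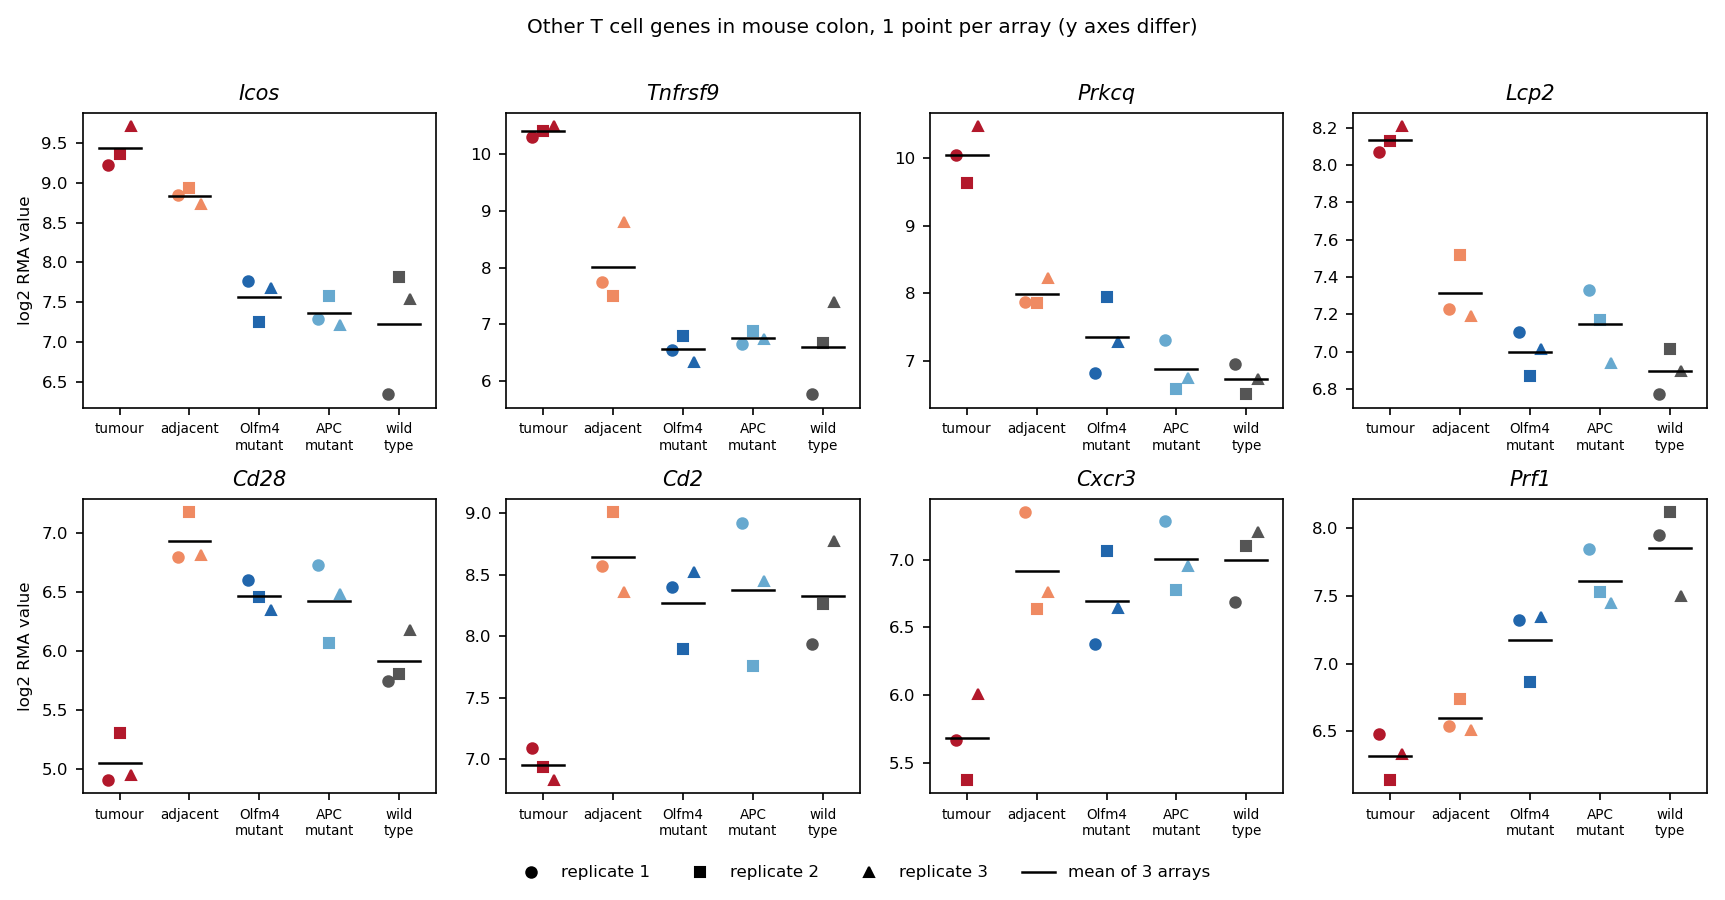
Log2 RMA value (y axis) of 8 other T cell genes on each array, by group (x axis), with 1 point per array and a bar at the mean of 3 arrays. Icos, Tnfrsf9, Prkcq and Lcp2 have their highest arrays in tumour, and Cd28, Cd2 and Cxcr3 have their lowest arrays there.

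The cytotoxic and NK list, 20 genes besides the granzymes above, had 1 gene called higher and 2 lower in tumour against adjacent tissue, where 14.3% and 13.8% of all genes were. Srgn, serglycin, the proteoglycan that packs granzymes in granules of many blood cells, rose by 0.81 (limma, adjusted p = 0.0289). Xcl1, a chemokine of CD8 T cells and NK cells, fell by 0.80 (limma, adjusted p = 0.0124) and Tbx21, the transcription factor T-bet, by 0.69 (adjusted p = 0.0211). Each of these calls was lost with some array left out, with adjusted p up to 0.0978 for Srgn, 0.0551 for Xcl1 and 0.093 for Tbx21 (limma). Srgn kept its call only without tumour replicate 1. Xcl1 lost it without tumour replicate 1 or adjacent replicate 2, and Tbx21 without tumour replicate 1 or 3 or adjacent replicate 1 or 2. Ifng, Nkg7 and Ccl5, products of cytotoxic and type 1 cells, were not called, with differences of 0.85, -0.65 and -0.78 (limma, adjusted p = 0.235, 0.32 and 0.216). Without tumour replicate 1 the Ifng difference was 1.49 and passed (limma, adjusted p = 0.0149), and without tumour replicate 3 it was 0.27 (adjusted p = 0.723). The Nkg7 difference ran from -1.09 without tumour replicate 3 to -0.10 without tumour replicate 1. Against wild type the list had 3 called higher and 4 lower, against 29.3% and 20.1% of all genes. Gzmc was higher by 0.66 (limma, adjusted p = 0.000693) and Serpinb9, an inhibitor of granzyme B, by 1.01 (adjusted p = 0.00209). The kept Prf1 probe set was among the lower, as given above. Tbx21 was lower with each array of these groups left out in turn (differences from -0.966 to -0.675, limma, adjusted p up to 0.0232).

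Of 16 genes of homing and residency, 1 was called higher and 3 lower in tumour against adjacent tissue, against 14.3% and 13.8% of all genes. Cxcr3, a receptor that brings effector T cells into inflamed tissue, fell by 1.23 (limma, SE 0.242, adjusted p = 0.00193), with 5.37 to 6.00 in tumour and 6.64 to 7.35 in adjacent tissue. The integrin chain Itga4 fell by 0.83 (limma, adjusted p = 0.00353) and Klf2, a factor of resting T cells and endothelium, by 0.96 (adjusted p = 0.0121). The called gene that rose was Lef1, by 2.76 (limma, adjusted p = 3.24e-05), a partner of beta-catenin that naive T cells and Wnt-active epithelium both express.

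The helper and innate-like list had 1 of 15 higher, Il17a, by 1.03 (limma, adjusted p = 0.0143), and 4 lower, against 14.3% and 13.8% of all genes. Among those, Il18r1 fell by 0.78 (limma, adjusted p = 0.00133), Cxcr5 by 1.51 (adjusted p = 0.0113) and Maf by 0.96 (adjusted p = 0.0212). With 1 array left out Il17a lost its call without tumour replicate 2 or 3 (limma, adjusted p up to 0.066), Cxcr5 without adjacent replicate 1 (0.0521) and Maf without tumour replicate 1 or adjacent replicate 1 or 2 (up to 0.0877). B cells carry Cxcr5 too, and it is itself in the B cell list. Of the 11 genes of that list, Cxcr5 included, 10 were called lower in tumour. Cd79a, part of the B cell receptor, was lower by 2.57 (limma, adjusted p = 0.000574). In the chemokine list 2 of 13 were higher and 4 lower, against the same shares. Ccl3 rose by 2.26 (limma, adjusted p = 0.000643) and Cxcl16 by 0.85 (adjusted p = 0.0019). Ccl28, made by colon epithelium, fell by 2.90 (limma, adjusted p = 2.58e-07) and Cxcl12 by 2.35 (adjusted p = 3.82e-07). Neither the 14 genes of the MHC class I list nor the 10 leukocyte-wide genes had a call in limma between tumour and adjacent tissue. The MHC class I list also holds the costimulatory and checkpoint ligand genes Cd274, Pdcd1lg2, Cd80 and Cd86.

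In adjacent tissue against wild type several T cell lists had calls in the higher direction alone. They were 5 of 18 for receptor signalling and costimulation, 5 of 16 for the regulatory list and 6 of 16 for homing and residency, with none lower. Of all genes, 17.7% were called higher and 10.1% lower. Icos is in both the receptor signalling and the regulatory list and is counted in each. The helper list had 5 of 15 higher and none lower. The chemokine list had 3 higher and 1 lower of 13, the cytotoxic list 2 higher and 1 lower of 20, and the MHC class I list 0 higher and 1 lower of 14. Il7r, the survival receptor of resting and memory T cells, rose by 1.43 (limma, adjusted p = 0.00156), Itga4 by 0.96 (adjusted p = 0.00227) and the gut-homing receptor Ccr9 by 1.64 (adjusted p = 0.00362). Ptprc, the pan-leukocyte antigen CD45, rose by 1.35 (limma, adjusted p = 0.0123), and of the 10 leukocyte-wide genes 4 were called higher and 1 lower. B cell genes were called higher in 6 of 11, among them Cd22 by 2.12 (limma, adjusted p = 0.00157). Cd28 was called higher on its kept probe set, by 1.01, and lower on the other, by 0.92, so its direction here depends on the probe set. The direction of Nrp1, of the regulatory list, turned with the mean of all its probe sets and with the most variable one. The list counts therefore hold for the kept probe sets. With the spike-in difference in the fit, 41 of the 56 differences of single genes outside the 10 lost their call and 2 turned sign.

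**Figure D5:**
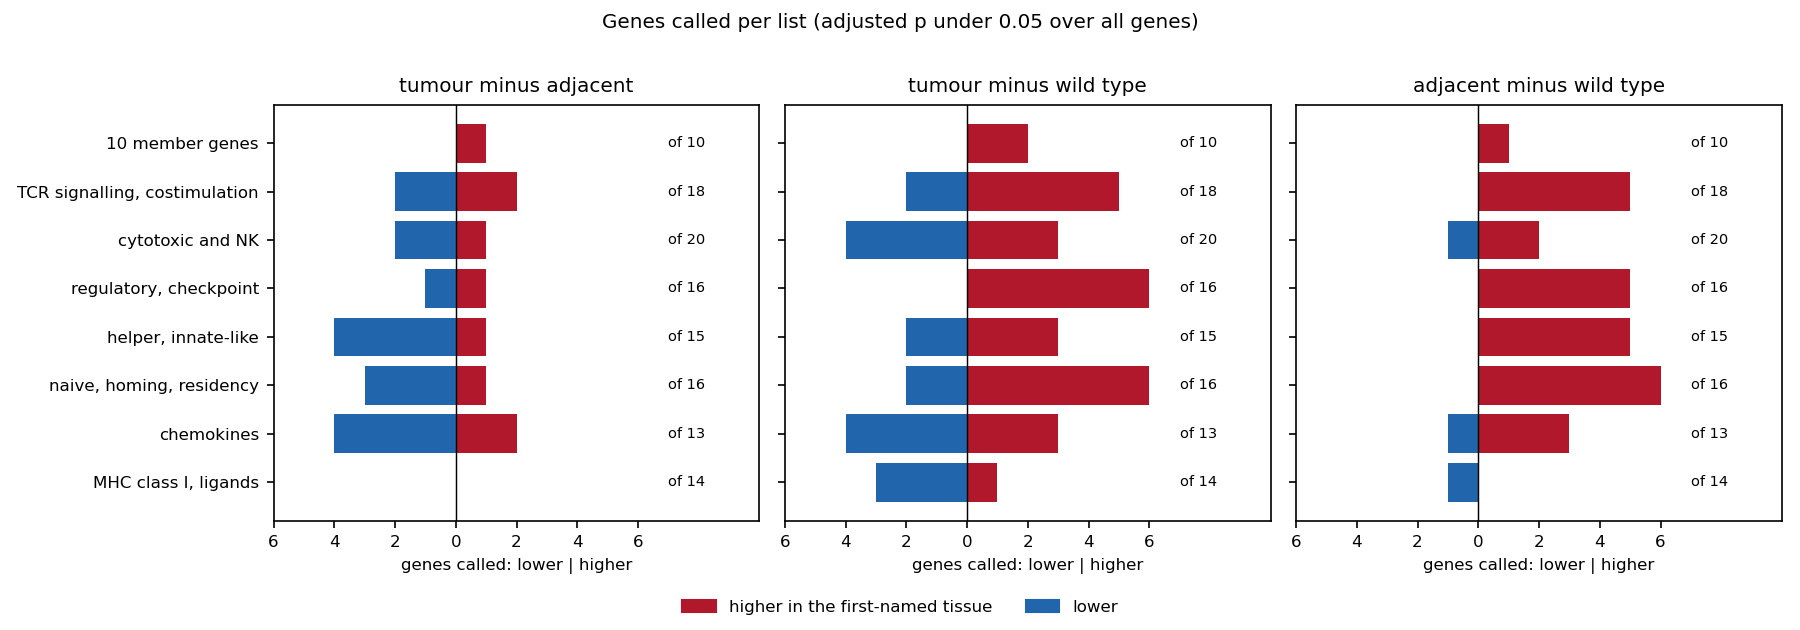
Number of genes called higher (right, red) and lower (left, blue) in each list (y axis), with the number measured, in tumour minus adjacent tissue, tumour minus wild type and adjacent tissue minus wild type. In the adjacent panel the receptor signalling, regulatory, helper and homing lists have calls to the right alone, on the probe set kept for each gene. In tumour minus adjacent tissue the calls fall on both sides.

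Genes with the pattern most like a member's were found by the root mean square difference of their log2 values over the 15 arrays, after the gene's own mean was subtracted. Nearest to Ctla4 were Msr1, a macrophage scavenger receptor (0.223), Cdyl (0.248) and Tnfaip2 (0.26). Nearest to Gzmb were Tnfrsf22 (0.394), 9530036O11Rik (0.414) and Arid5a (0.427), and nearest to Gzma were Ifit2 (0.453), Mfsd2a (0.525) and Gbp6 (0.535). For Cd3e these were Bst1 (0.254), the leukocyte actin bundler Lcp1 (0.289) and Vps52 (0.294). For Cd3d they were Ciita, the MHC class II transactivator (0.42), Cd83 (0.44) and the interleukin 2 receptor chain Il2rb (0.445). For Cd3g they were Zc3h12a (0.421), Ciita (0.427) and H2bc18 (0.473), and for Cd8a Sp100 (0.472), Nkg7 (0.475) and Oas1a (0.498). Among the members the closest were Cd4 and Cd8b1, both of narrow range (0.298), and Cd3d and Cd3g (0.342), which lie beside each other with Cd3e on chromosome 9. These distances describe the 15 arrays, which the genes share.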

How the data were processed

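Colon RNA was isolated with Trizol and hybridised as biotin-labelled cRNA, per the labels' protocols. The submitters' processing notes name RMA and Partek 6.5, and the deposited table holds log2 values, a scale read from their range. RMA normalises the arrays to a common distribution, so a shift of most genes in 1 direction is largely removed. The genome build is not given in the sources used here, and the number of arrays limits the precision. Array replicates are separate samples in the labels, but those of the double mutants share 2 animals, so p-values partly measure the spread between pieces of an animal.

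From these log2 values, with R 4.3.3 and limma 3.58.1, a model of 5 group means was fitted to all 15 arrays (lmFit, eBayes) and 8 contrasts were tested over 18193 genes. The fit was tested on simulated data. Platform annotation gave 1 symbol to 34945 probe sets, several to 932 and none to 9160, and 64 were controls. Same-numbered tumour and adjacent arrays come from the same animal, per the titles. Their deviations from the group means correlated at 0.281, -0.0155 and 0.182 over genes. The alternatives changed the probe set rule, a filter on dim genes, the normalisation, the variance prior, the arrays fitted, the block and a spike-in covariate.

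The members and lists were chosen with earlier results of these data known. The text names the 10 members, a fixed set of other T cell genes where a result turns on them, up to 4 called genes per list with the smallest adjusted p, and the 3 nearest genes of members that span 2 or more on the log2 scale. Of 231 list entries 211 were measured, and the other 20, Lck among them, were not analysed here. Promoter sequences are from RefSeq, GRCm38.p6.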

Additional observations from a re-analysis of the deposited data

How the results depend on the processing

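Members called between tumour and adjacent tissue, 1 in the fit reported, numbered 0 among genes above the median mean (8.39, which only Cd3e passed of the members), 0 with the spike-in covariate, 0 with an animal's arrays averaged, 3 with the animal as a random block (Gzmb, Gzma and Ctla4), 2 with the replicate block and 2 with the animal as a fixed block (Gzmb and Gzma), and 0 to 2 with an array left out. Against wild type the 2 members became 0 with the dim filter, 1 with the compared groups alone, 0 with the spike-in covariate and 2 to 3 with an array left out. For adjacent tissue against wild type the 1 member became 0 with cyclic loess, the compared groups alone, the spike-in covariate, the random block or averaged arrays, and 0 to 1 with an array left out. For adjacent tissue against APC mutants 0 became 1 with the compared groups alone (Ctla4), and for Olfm4 mutants against wild type 0 became 0 to 1 with an array left out (Gzma). The replicate block changed no call of a member other than Gzma. With the spike-in covariate the sign turned for Cd3d (0.059) and Cd3g (0.694) in tumour against adjacent tissue, for Gzma (-0.454), Gzmb (-1.87) and Cd2 (0.326) in tumour against wild type, and for Tnfrsf9 (-0.236) in adjacent tissue against wild type. In this last comparison other probe sets turned Cd28 (-0.917 with the most variable) and Nrp1 (-0.708 with the mean of all and -2.07 with the most variable), and the most variable probe set of Rora gave -0.175 in Olfm4 mutants against wild type. With an array left out the tumour minus adjacent difference ran from -0.742 to 0.229 for Cd3g, -1.07 to 0.117 for Cd8a, -0.244 to 0.093 for Cd8b1 and -0.287 to 0.258 for Foxp3. The cause was not tested. Of 257 refits of member differences without the covariate, 227 kept direction and side of the threshold, as did 730 of 801 for the other genes, and with it 11 of 18 and 13 of 56. A difference that stayed uncalled counts as kept. The number of members called moved in 10 of 17 alternatives for tumour against adjacent tissue and in 9 of 15 for adjacent tissue against wild type. The covariate moves with the groups, and 3 arrays a group limit what can be called.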
